A study of Homo sapiens with 11 samples.

Results

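The regions described here are the enriched intervals that the MINA antibody gave in MDA-MB-231 cells without mdig (KO) and that no MINA interval of the mdig-expressing cells (WT) overlapped by even 1 bp. On chromosomes 1 to 22 and X there were 1327 of them among 7859 KO intervals, which is 16.9% (95% Wilson interval 16.1% to 17.7%; all such intervals cover counting error only). They covered 4.32 Mb of the 35.7 Mb in the KO list, or 12.1%. The overlap between the MINA lists chose these intervals, so their absence from WT is a description and not a result.

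MDA-MB-231 is a human triple-negative breast cancer line. Both KO and WT cells were made with CRISPR-Cas9 and grown with blasticidin. Per the labels the KO cells made no mdig protein and the WT cells kept a normal amount. Whether the KO cells were 1 clone or a pool is not given in the sources used here. Each of 5 antibodies (MINA, H3K4me3, H3K36me3, H3K9me3 and H4K20me3) was used on 1 KO and 1 WT chromatin sample by ChIP-seq, which sequences the DNA that an antibody brings down. No library was replicated, so the values describe single libraries and no statistical test was made. Read depth is unknown and the lists carry no heights, so a longer list can reflect more reads or better enrichment as well as more mark, and these cannot be told apart.

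Mdig, also called MINA53 or RIOX2, is an oxygenase with a JmjC domain that hydroxylates a histidine of a ribosomal protein and has been linked to the removal of H3K9me3. Active promoters carry H3K4me3, and genes that are being transcribed carry H3K36me3 along their bodies. H3K9me3 marks heterochromatin, and H4K20me3 is laid down largely by SUV420H enzymes that HP1 brings to H3K9me3. Since the KO cells are labelled as lacking mdig, the KO list holds what the antibody returned without its named target.

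The KO-only intervals crowded on a few chromosomes. Chromosome 15 held 236 of them, which is 2.30 per Mb and 56.3% of its own KO MINA intervals (Wilson 51.5% to 61.0%). Chromosome 7 followed with 180 (1.13 per Mb, 32.6% of its KO intervals) and chromosome 9 with 134 (0.95 per Mb, 27.6%). Chromosomes 20 and 5 held 52 and 114, or 0.827 and 0.631 per Mb. At the other end chromosome 13 held 4 (0.0348 per Mb), chromosome 18 held 8 (0.103 per Mb) and chromosome 2 held 26 (0.107 per Mb). Together chromosomes 15, 7 and 9 carried 41.4% of the KO-only intervals, against 13.9% of the KO intervals shared with WT, on 13.3% of the span. Chromosome X had a lower count of 67, but these made up 40.4% of its KO MINA intervals (33.2% to 48.0%).

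**Figure D1:**
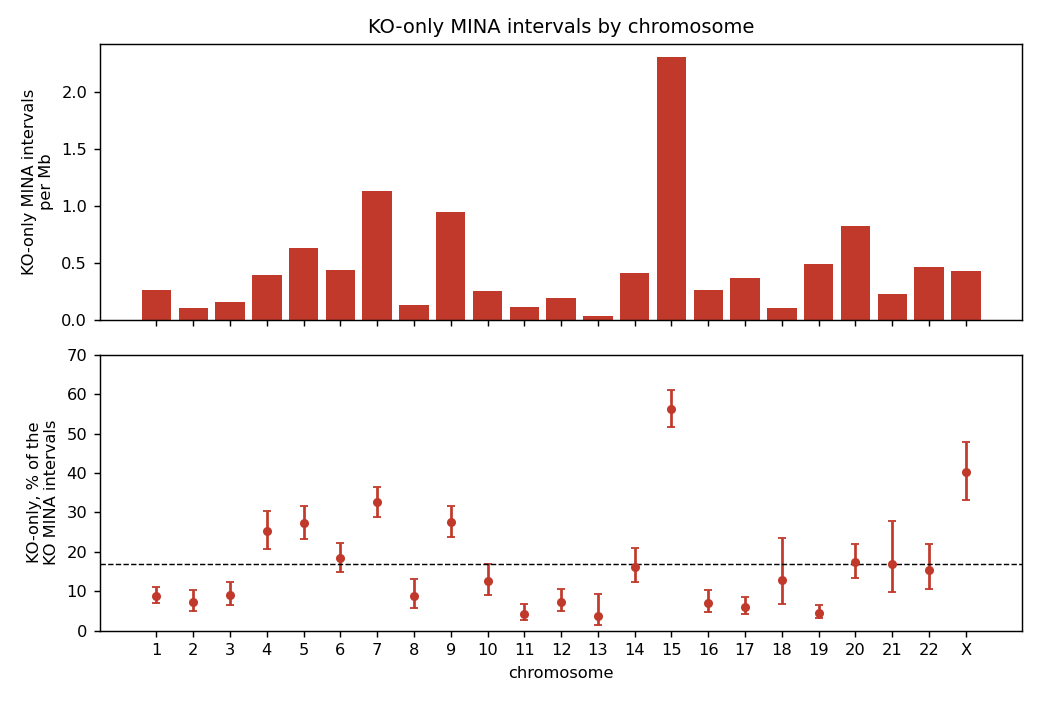
KO-only MINA intervals per Mb of each chromosome (bars, upper panel) and as a percentage of that chromosome's KO MINA intervals (points with 95% Wilson intervals, lower panel). The dashed line is the 16.9% of all chromosomes; chromosome 15 stands highest in both panels, at 2.30 per Mb and 56.3%.

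The density of the WT MINA list, which the selection used, went in part with the KO-only share. Chromosomes 15, X, 7 and 9, with the highest shares, carried 2.70, 1.47, 4.24 and 3.81 WT MINA intervals per Mb. Chromosomes 19, 17 and 16 carried 24.0, 16.0 and 9.70 per Mb and had shares of 4.57%, 6.09% and 7.04%. There were exceptions, since chromosome 13 carried 2.29 per Mb and had the lowest share, 3.77%. Chromosome 18, with 1.83 per Mb, had 12.9%, and chromosome 22, with 11.8 per Mb, had 15.4%. Around a KO-only interval a median of 6 WT MINA intervals lay within 500 kb to either side (quartiles 2 and 13), against 15 around a shared KO interval (6 and 27), although a shared interval counts its own WT partner. For 105 of the 1327 none lay there. Across the 23 chromosomes the KO-only share moved with the KO over WT covered length of H3K4me3 (Spearman rho 0.717) and H3K36me3 (0.710), somewhat less with that of H4K20me3 (0.687) and least with that of H3K9me3 (0.440). Without chromosome 15 these were 0.677, 0.669, 0.642 and 0.382. All chromosomes come from the same libraries, so these are descriptions. On chromosome 15 all 4 histone lists stood higher in KO over WT covered length than over all chromosomes, at 1.14 for H3K4me3, 1.43 for H3K36me3, 1.86 for H3K9me3 and 12.5 for H4K20me3, beside 0.844, 1.00, 1.2 and 2.23. On X they stood at 0.910, 1.15, 11.3 and 9.40. The part of these longer lists in the KO-only counts was not tested.

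The rule left no KO-only interval overlapping the WT list, so gaps to that list only describe the selected intervals. No random positions were placed for comparison. The median gap to the nearest WT MINA interval was 60.0 kb (quartiles 17.2 and 177.7 kb, largest 4133 kb), and 1181 of 1327, or 89.0% (87.2% to 90.6%), were at least 5 kb away. Close to the limit of the rule, 5 KO-only intervals touched a WT interval with a gap of 0 and 29 in all lay within 1 kb. On the other side of the limit 11 shared KO intervals overlapped WT by 200 bp, the step of the file's grid, and 424 overlapped by less than 1 kb.

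Along a chromosome the KO-only intervals were spread more thinly than the shared ones, with some tight clusters. When intervals with gaps of at most 100 kb were chained, 300 KO-only intervals (22.6%, 20.4% to 24.9%) fell in 62 clusters of at least 3, and 847 stood alone. The KO-only intervals numbered 0.437 per Mb and the shared ones 2.15. Of the shared KO intervals 49.9% fell in such clusters. Chromosome 15 carried much of the clustering, and without it the KO-only share was 14.8% and the shared one 50.6%. There were 18 clusters of at least 5 members, of which 8 lay on chromosome 15, 3 each on chromosomes 5, 7 and 9, and 1 on X. In 9 of the 18 no WT MINA interval lay anywhere between the first and the last member.

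The largest cluster lay on chromosome 15 from 74861801 to 75510200 (hg19). Its 648.4 kb held 28 KO-only intervals of 140.6 kb in all, beside only 2 shared KO intervals and 2 WT ones. Over this stretch H3K4me3 covered 145.0 kb in KO and 80.2 kb in WT, and H3K36me3 covered 277.2 kb in KO and 119.0 kb in WT. The heterochromatin marks were also longer in KO, with 118.8 kb of H4K20me3 in KO and 3.4 kb in WT, and 46.0 kb of H3K9me3 in KO and 28.4 kb in WT. Of the 28 members 16 lay on H3K4me3 of KO and 11 on H3K4me3 of WT. Within it, 24 KO-only intervals from 75012201 to 75510200 followed each other with no WT MINA interval between them, the run with the most members. A run of 11 members on the same chromosome, from 53077001 to 55882600, was longer in kb, at 2805.6 kb against 498.0 kb.

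**Figure D2:**
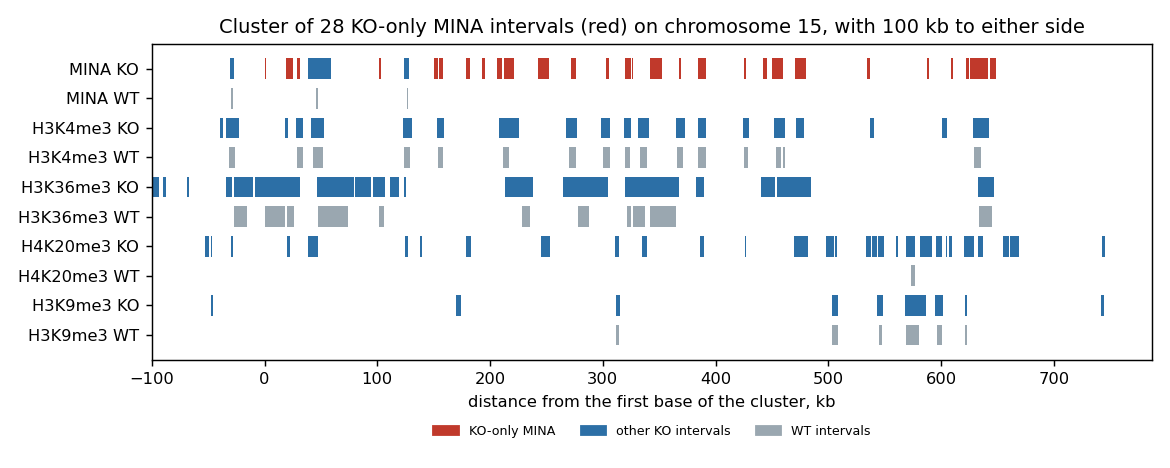
Intervals of all 10 libraries along the largest cluster, by distance in kb from its first base, with 100 kb to either side. Red bars are the 28 KO-only MINA intervals, blue bars other KO intervals and grey bars WT intervals; the WT MINA row holds 2 intervals in the cluster, while most H3K4me3 blocks of KO have a partner in WT.

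The next clusters by size lay on the same chromosome. From 40673201 to 41279000 there were 19 members, with 320.2 kb of H3K36me3 in KO and 180.2 kb in WT, and H4K20me3 reached 70.6 kb in KO where the WT list held none. From 74476601 to 74717600 lay 11 members over 241.0 kb with no WT MINA interval, and here H4K20me3 of KO covered 103.2 kb, again with none in WT. Of the clusters with 9 members, those from 55487401 to 55882600, from 59041001 to 59398200 and from 78072001 to 78444000 also lay on chromosome 15 and held no WT MINA interval. The first of these had 132.8 kb of H3K36me3 in KO and 1.2 kb in WT, the second 193.0 kb and 79.2 kb, and the third 68.8 kb in KO and none in WT. The cluster with 9 members on chromosome 5, from 178908201 to 179321400, differed in that 9 WT MINA intervals and 8 shared KO intervals lay among its members.

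Over the 18 large clusters together the mark lists were longer in KO. H4K20me3 covered 1057 kb in KO and 3.4 kb in WT, was longer in KO in all 18, and was missing from WT in 17. H3K36me3 covered 2226 kb in KO and 1283 kb in WT, longer in KO in 16 of 18, and H3K4me3 covered 844.8 kb in KO and 590.8 kb in WT, longer in KO in 15. For H3K9me3 the lengths were 242.4 kb in KO and 149.8 kb in WT, and WT was longer in 1 cluster. None of the 160 clustered members touched H4K20me3 in WT, and 69 did in KO. Over all KO MINA intervals 8.88% touched it in WT and 32.7% in KO. Among all 236 KO-only intervals of chromosome 15 the shares were 1.27% in WT and 40.3% in KO. These clusters were picked by the MINA lists and not by the histone lists, but all lists came from the same KO and WT cells. Of the 18 clusters 8 lay on chromosome 15, where all histone lists stood higher in KO over WT length than over all chromosomes. The part of this in the cluster values was not tested.

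In 10-Mb steps the densest stretch was chromosome 15 from 70 to 80 Mb with 84 KO-only intervals beside 29 shared ones. Next came chromosome 9 from 130 to 140 Mb (59 beside 162 shared), chromosome 5 from 170 to 180 Mb (56 beside 48), and chromosome 15 from 50 to 60 Mb (49 beside 11) and from 40 to 50 Mb (48 beside 35). These 5 of the 316 steps held 22.3% of all KO-only intervals. The last 5 Mb of the chromosomes held 10.8% of the KO-only, 10.3% of the shared and 10.9% of the WT-only MINA intervals. The first 5 Mb held 4.82% of the KO-only, 8.19% of the shared and 8.54% of the WT-only ones.

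The KO-only intervals were small. Their median width was 2.20 kb (quartiles 1.40 and 4.0 kb, range 0.200 to 34.6 kb), against 3.2 kb (2.00 and 5.60 kb) for the shared KO intervals and 5.2 kb for the WT-only ones. Widths under 1 kb made up 11.5% of the KO-only and 3.31% of the shared intervals, and widths of at least 10 kb made up 4.37% and 10.6%. On chromosomes 5 and 9 the KO-only intervals were wider, with medians of 3.50 and 3.2 kb. They were narrowest on chromosome 18, with 1.2 kb over 8 intervals, followed by X, 19 and 8, with 1.40 kb on each.

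H3K4me3, the mark of active promoters, met 463 of the KO-only intervals in KO, or 34.9% (32.4% to 37.5%), and 451 in WT, or 34.0% (31.5% to 36.6%). That is far below the shared KO intervals, where 92.5% met it in KO and 93.3% in WT. By length the mark took 26.6% of the KO-only intervals in KO and 24.98% in WT, while over the whole span it took 3.36% in KO and 3.98% in WT. Of the KO-only intervals 430 carried H3K4me3 in both genotypes, 33 in KO only and 21 in WT only. The KO-only mark reached 2.49%, against a background of 0.738% of all KO MINA intervals. The WT-only mark reached 1.58% (background 1.25%). Only intervals without H3K4me3 in WT could have it in KO only, and 93.3% of the shared KO intervals had it in WT. Of the intervals without it in WT, 33 KO-only ones had it in KO and 843 did not, against 25 and 413 shared ones. The background of 0.738% therefore does not compare like with like. In 69.5% of the 463 the MINA interval lay wholly within an H3K4me3 interval of KO, against 78.0% at shared intervals.

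Where 1 H3K4me3 interval of each genotype lay under a KO-only interval, the KO one was more often the wider. Among 423 such pairs 57.2% were wider in KO and 36.9% narrower, and the median ratio of widths was 1.06. At shared KO intervals the same count gave 26.7% wider and 67.8% narrower over 5900 pairs, with a median of 0.906. The widest member whose H3K4me3 was in KO only spanned 12 kb on chromosome 15 from 74705601 to 74717600, with 6.60 kb of H3K4me3 in KO and none in WT, on top of H3K36me3 in both. Another on chromosome 15, from 75332001 to 75341800, carried 7.20 kb of H3K4me3 and 9.80 kb of H3K36me3 in KO, and neither in WT. Of the 33 such members 11 lay on chromosome 15 and 5 each on chromosomes 5 and 7.

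H3K36me3, found along transcribed genes, met 365 KO-only intervals in KO (27.5%, 25.2% to 30.0%) and 265 in WT (19.97%, 17.9% to 22.2%). In 114 it was in KO only, which is 8.59% against a background of 10.1%, and in 14 it was in WT only (1.06%, background 3.03%). At shared KO intervals the overlap was 65.2% in KO and 58.2% in WT. By length the KO list covered 1.39 times as much of the KO-only intervals as the WT list, against 1.12 times for the shared ones and 1.00 over all chromosomes. Of the 114 members with the mark in KO only, 39 lay on chromosome 15, 17 on chromosome 7, and 13 each on 9 and X.

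H3K9me3 met 159 KO-only intervals in KO (11.98%, 10.3% to 13.8%) and 177 in WT (13.3%, 11.6% to 15.3%). Those are higher shares than at shared KO intervals, where 4.76% met it in KO and 3.77% in WT. By length the mark took 9.21% of the KO-only intervals in KO and 11.0% in WT, while over the whole span it took 10.1% in KO and 8.40% in WT. The mark was in KO only at 38 members (2.86%, background 1.9%) and in WT only at 56 (4.22%, background 1.3%). By length KO covered 0.834 of what WT covered within the KO-only intervals, whereas over all chromosomes KO covered 1.2 times the WT length. Within WT-only MINA intervals the ratio was much the same, at 0.836, and within shared KO intervals it was 1.29. On chromosome 19, home to many KRAB zinc finger genes, which are known carriers of H3K9me3, 11 of the 29 KO-only intervals met it in each genotype. On X 8 of 67 met it in KO and none in WT.

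Of the 4 marks H4K20me3 differed most in overlap between the genotypes. It met 419 KO-only intervals in KO (31.6%, 29.1% to 34.1%) and 84 in WT (6.33%, 5.14% to 7.77%). At 358 of them it was in KO only, which is 27.0% and close to the background of 26.1%, and at 23 it was in WT only (1.73%, background 2.25%). By number the gain at KO-only intervals was therefore like that at KO MINA intervals in general. By length it was larger, since the KO list covered 8.20 times as much of the KO-only intervals as the WT list, against 3.67 times for shared intervals and 2.23 times over all chromosomes. Of the members on this mark in KO 54.4% lay wholly within an H4K20me3 interval, against 29.4% at shared intervals. The same held for H3K36me3 (57.5% against 26.9%) and H3K9me3 (56.6% against 18.3%), and KO-only intervals were the narrower. Of the 358 members with H4K20me3 in KO only, 92 lay on chromosome 15, 51 on chromosome 7, 48 on 9 and 46 on 5.

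**Figure D3:**
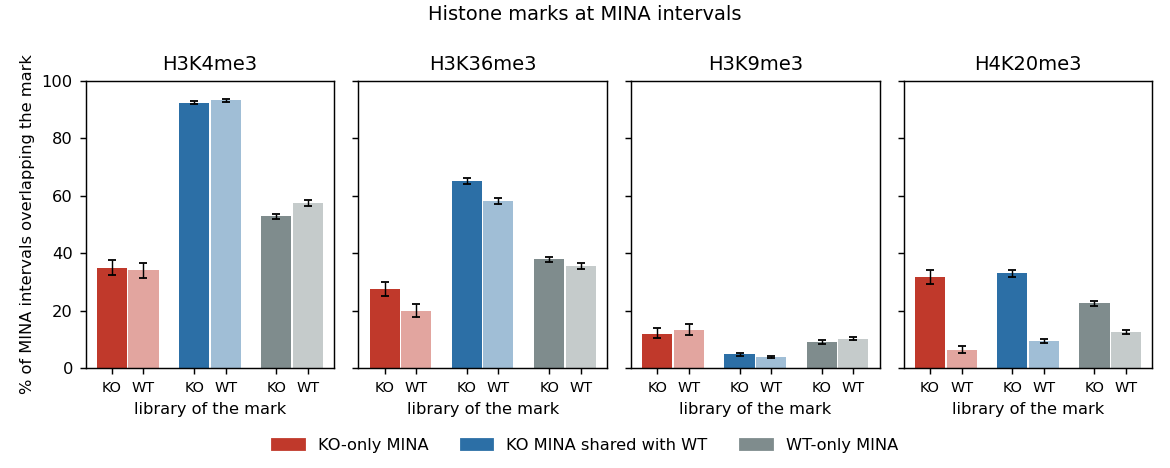
Percentage of KO-only, shared KO and WT-only MINA intervals that overlapped each histone mark in KO (full colour) and in WT (pale), with 95% Wilson intervals that cover counting error only. H3K4me3 and H3K36me3 are lower at the KO-only intervals than at the shared ones, and H4K20me3 stands at 31.6% in KO and 6.33% in WT.

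H4K20me3 in KO only was found over several kinds of WT base. Of the 358 KO-only intervals with the mark in KO only, 139 lay on H3K4me3 of WT, 102 on H3K9me3 of WT and 126 on neither. At shared intervals 1602 of 1690 lay on H3K4me3 of WT, 75 on H3K9me3 and 63 on neither. An interval on both marks is counted under both. Both sets differ in make-up to begin with, since H3K4me3 of WT met 34.0% of all KO-only and 93.3% of all shared intervals, and H3K9me3 of WT met 13.3% and 3.77%.

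Sorted by their KO marks, the KO-only intervals fell into 4 groups. Those on H3K4me3 were the 463 given above, with or without other marks. A further 194 (14.6%) lay on H3K36me3 without H3K4me3, 274 (20.6%) on H3K9me3 or H4K20me3 alone, and 396 (29.8%, 27.4% to 32.4%) on no mark. Among shared KO intervals the group on H3K4me3 was 92.5%, and the others were 3.54%, 1.78% and 2.19%. WT-only MINA intervals, sorted by KO marks too, stood at 52.8%, 17.1%, 8.45% and 21.7% in the same order. The share on H3K36me3 without H3K4me3 was thus no trait of the KO-only set alone, and unmarked intervals were frequent in both. Median widths were 2.40 kb on H3K4me3, 2.6 kb on H3K36me3, 2.80 kb in the heterochromatin group and 1.80 kb without a mark.

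The groups also differed in place. Members on H3K36me3 without H3K4me3 lay nearest to WT MINA intervals, with a median gap of 22.4 kb, and those of the heterochromatin group farthest, with 103.2 kb. The gap was 64.2 kb for the H3K4me3 group and 67.9 kb for unmarked members. Clusters of at least 3 took 28.9% of the H3K36me3 group, 28.5% of the heterochromatin group, 23.5% of the H3K4me3 group and 14.4% of the unmarked one. Chromosome 15 supplied 110 of the 463 members on H3K4me3 and 48 of the 396 unmarked ones.

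Most members on H3K4me3 in KO were on it in WT too. Of the 463 on H3K4me3 92.9% met H3K4me3 in WT, and 24 met no mark there. Of the 194 on H3K36me3 without H3K4me3 78.4% met H3K36me3 in WT. In the heterochromatin group 120 of 274 met no mark in WT, since 254 of them carried H4K20me3 in KO and 51 in WT, while H3K9me3 was found at 134 in KO and 135 in WT. Taking all 4 marks at once, 769 of 1327 KO-only intervals (57.95%) had the same set of marks in KO and in WT, against 59.8% of the shared ones. This count includes intervals with no mark in either genotype, and those with the same set of at least 1 mark were 418 (31.5%) of the KO-only and 58.2% of the shared intervals. A mark found in KO and not in WT was present at 482 (36.3%), or at 179 (13.5%) when H4K20me3 is left out, and a mark found in WT and not in KO at 106 (7.99%). These shares lay close to those over all KO MINA intervals, which were 34.6%, 12.5% and 7.57% in the same order.

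Unmarked intervals were common in the KO-only list and rare in the shared one. No mark of either genotype touched 351 of them (26.5%, 24.1% to 28.9%), against 1.67% of the shared KO intervals and 15.9% of the WT-only MINA intervals. For 239 no histone interval of the 8 lists lay within 5 kb either, which is 18.0% against 0.612% of the shared ones. The share without a KO mark was lower in wider classes, with 40.1% under 1 kb, 35.6% from 1 to 2 kb, 30.6% from 2 to 4 kb, 20.4% from 4 to 8 kb and 10.2% of those of 8 kb and over. H4K20me3 of KO went the other way, at 20.4%, 22.4%, 32.4%, 43.8% and 52.0% in the same order. H3K4me3 stayed between 25.7% and 37.2% in all 5 width classes, so the low share on H3K4me3 was found at wide members too.

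**Figure D4:**
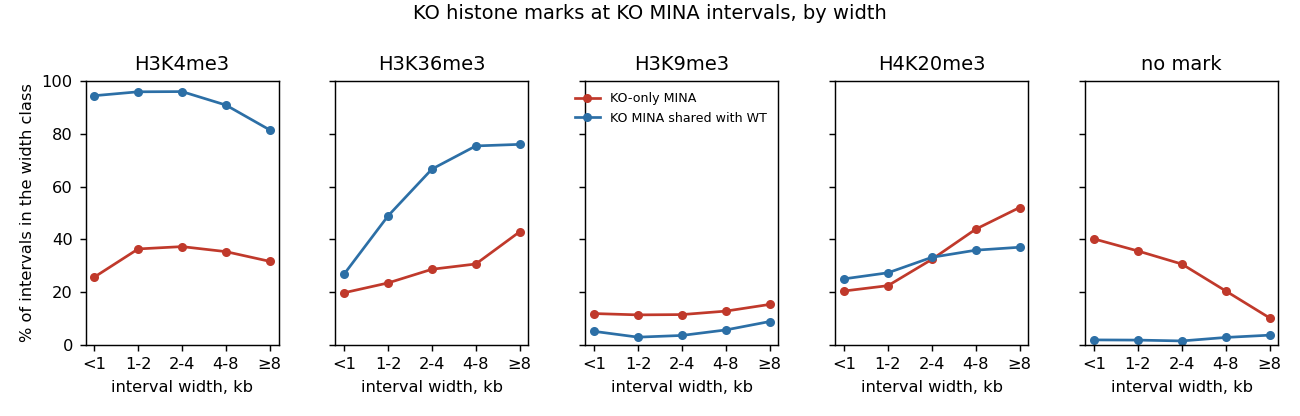
Percentage of KO-only (red) and shared (blue) KO MINA intervals on each KO histone mark or on none, in 5 classes of interval width in kb. The share of KO-only intervals with no mark is 40.1% in the narrowest class and 10.2% in the widest, while that on H4K20me3 is 20.4% and 52.0%.

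Among single intervals the widest, 34.6 kb on chromosome 6 (41642601 to 41677200), belonged to the unmarked group. Its nearest H3K4me3 interval lay 17.4 kb away in KO and in WT, and its nearest H4K20me3 interval 10.0 kb away in KO and 59.0 kb in WT. Its neighbour from 41596801 to 41630400 was of similar width, 33.6 kb, and had another make-up. H4K20me3 of KO covered all of it and the WT list held none, and H3K4me3 covered 6.2 kb in KO and 4.20 kb in WT. The third, of 21.8 kb on chromosome 15 from 74671001 to 74692800, lay in the cluster of 11 members and carried 16.6 kb of H4K20me3, 4.60 kb of H3K36me3 and 4.0 kb of H3K4me3 in KO, against 0.600 kb of H3K4me3 alone in WT.

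An interval of 21.0 kb on chromosome 20, from 60267801 to 60288800, lay wholly on H3K9me3 of WT, against 3.2 kb of H3K9me3 in KO, and no other mark touched it in either genotype. Chromosome 5 gave the next 3. The one from 178908201 to 178927600 held 18.4 kb of H4K20me3 in KO and no mark in WT, and the one from 176300601 to 176317200 was covered over its 16.6 kb by H4K20me3 of KO and met nothing in WT. From 179773601 to 179791200 H3K4me3 covered 8.40 kb in KO and 12.4 kb in WT. Chromosome 7 held a pair of 16.4 kb each, from 149479401 to 149495800 with 15.2 kb of H4K20me3 in KO only, and from 150869601 to 150886000 with no mark. The last of the 10 widest, tied at 16.2 kb with an interval on chromosome 7, lay on chromosome 20 from 57279401 to 57295600 with 7.60 kb of H3K36me3 in KO and 1.80 kb in WT. The tied interval, from 1678001 to 1694200, held 1.80 kb of H3K9me3 in KO and 1.00 kb in WT, and 1.00 kb of H4K20me3 in KO alone. Of the 10 widest 5 carried H4K20me3 in KO, 6 with the tied one, and none in WT. The widest of the 113 members on H3K4me3 and H3K36me3 together lay on chromosome 14 from 24727201 to 24741000, with 13.2 kb of H3K36me3 in KO and 5.8 kb in WT, and 6.8 kb of H3K4me3 in KO and 5.4 kb in WT.

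Distance from the WT list went with the kind of mark. At members under 5 kb from a WT MINA interval (146) H3K36me3 was met by 42.5% in KO and 36.3% in WT, and at members 200 kb and more away (293) by 11.9% in KO and 2.73% in WT. For H3K9me3 the order was the other way, at 7.53% in KO and 8.22% in WT among the near members and 20.1% in KO and 19.8% in WT among the far ones. H4K20me3 stood at 26.7% in KO and 9.59% in WT near by, and at 38.9% in KO and 4.10% in WT far away. H3K4me3 in KO was 41.1% near and 38.9% far, with 30.6% in the group from 5 to 50 kb. The distance groups also differed in chromosome, since chromosome 15 held 8 of the 146 near members and 75 of the 293 far ones. Its part in these shares was not tested.

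For H3K36me3 and H4K20me3 the difference between the genotypes reached beyond the KO-only intervals themselves. KO over WT covered length of H3K36me3 was 1.39 inside them, 1.27 in the first 10 kb outside, 1.18 from 10 to 50 kb, 1.13 from 50 to 200 kb and 1.02 from 200 kb to 1 Mb, beside 1.00 over all chromosomes. For H3K4me3 it was 1.07, 1.05, 0.956, 0.893 and 0.847 in the same zones, beside 0.844. For H4K20me3 it was 8.20, 3.65, 3.31, 2.76 and 2.23, beside 2.23. For H3K9me3 it was 0.834, 0.776, 0.745, 0.791 and 0.977, beside 1.2, and outside the intervals it was below 1.2 around the other sets too, at 0.868, 0.706, 0.621 and 1.03 around shared KO and 0.662, 0.573, 0.570 and 1.1 around WT-only ones. Around shared KO intervals H3K36me3 was at 1.06 and H4K20me3 at 1.54 in the first 10 kb. Without chromosome 15 the ratios inside the KO-only intervals were 1.27 for H3K36me3, 1.01 for H3K4me3, 0.814 for H3K9me3 and 6.56 for H4K20me3.

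**Figure D5:**
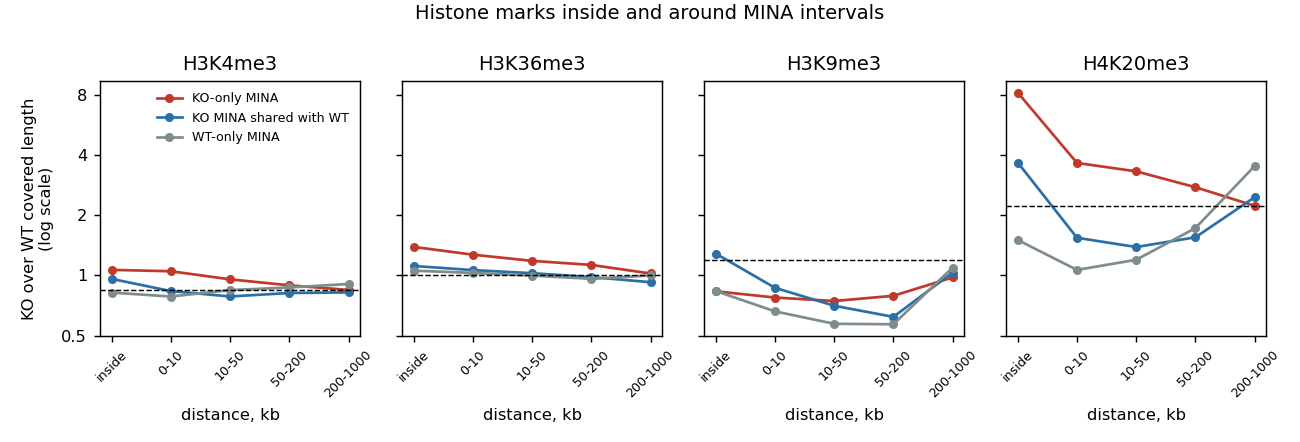
KO over WT covered length of each histone mark (log scale) inside MINA intervals and in 4 zones of distance from them, in kb, for KO-only, shared KO and WT-only MINA intervals. The dashed line is the ratio over all chromosomes; for H3K36me3 the KO-only curve starts at 1.39 and ends at 1.02, and for H4K20me3 it starts at 8.20 and ends at 2.23.

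The H3K36me3 lists, which took no part in choosing the KO-only intervals but came from the same KO and WT cells, were also compared in bins of 2 Mb. Of 1199 bins with at least 20 kb of H3K36me3 in both genotypes together, 210 had a KO over WT length of at least 1.2. These bins made up 13.7% of the span and held 46.3% of the KO-only intervals, 15.7% of the shared KO intervals and 8.26% of the WT-only ones. In them 37.4% of the KO MINA intervals were KO-only, against 11.1% in the other bins. Without chromosome 15 the bins still held 38.2% of the remaining members on 12.5% of the remaining span. Bins chosen in the same way by H3K4me3 held 20.3% of the KO-only intervals on 3.63% of the span. They held 2.68% of the shared and 0.57% of the WT-only ones. Without chromosome 15 the H3K4me3 bins held 10.5% of the remaining members on 2.80% of the remaining span. By H4K20me3 the bins held 78.7% on 46.8%, with 59.9% of the shared and 51.9% of the WT-only intervals. Without chromosome 15 the H4K20me3 bins held 74.2% on 45.8%. By H3K9me3 they held 27.7% on 23.3%, and without chromosome 15 19.4% on 22.8%. With chromosome 15 kept, the H3K9me3 bins held 10.1% of the shared and 6.63% of the WT-only intervals. In them 35.8% of the KO MINA intervals were KO-only, against 13.9% in the other bins. The cut of 1.2 was chosen with the data in view. With a cut of 1.5 the H3K36me3 bins held 23.7% of the KO-only intervals on 5.67% of the span, and without chromosome 15 15.1% on 4.78%. The H3K4me3 bins then held 6.33% on 0.527%, and without chromosome 15 only 0.458% on 0.205%.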

How the data were processed

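The deposited file holds, per the file headers, 1 list of enriched intervals for each of 10 ChIP libraries on hg19. The submitters' processing notes name BWA and SICER 1.1, while settings, use of the input and scaling are unstated there. The other values the authors deposited are starts and ends on a 200-bp grid, with no score per interval and no depth. Chromosomes 1 to 22 and X were used, and the input library was not analysed here. Overlaps, gaps and covered lengths were computed with Python 3.11.15, numpy 2.4.6 and pandas 2.3.3. The functions were tested on simulated lists and against bedtools 2.31.1, and Wilson intervals came from scipy 1.17.1. Bins had 1 kb added to each length. No test was run. Members, lists and comparisons were chosen with earlier results of these data known. Named regions are the 10 widest members, the clusters with most members (7, because of ties), the 5 densest and 3 sparsest chromosomes, the widest member of each main combination of marks, and 2 members with H3K4me3 in KO only, which were added after their values were seen. Coordinates are 1-based. An hg19 genome or annotation was not used here, so no gene or sequence is given.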

Additional observations from a re-analysis of the deposited data

How the results depend on the processing

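Of 63 alternatives over 15 results, 50 stayed within the counting interval (for counts and ratios, within 1.5 times), and the other 13 are given here. With only intervals of at least 2 kb the count of KO-only intervals was 787 of 5755, or 13.7%, beside 16.9% in the main setting. The overlap of these 787 was 31.0% with H3K36me3 of KO and 22.2% with H3K36me3 of WT. With H4K20me3 it was 38.2% in KO and 5.08% in WT. Asking for 50% of the shorter interval gave 22.3% for H3K36me3 of KO and 16.1% for H3K36me3 of WT. Without chromosome 15, an alternative chosen after seeing the data, overlap with H3K4me3 of KO was 32.4%, and 14.8% of members fell in clusters of at least 3. That share was 11.3% when chained within 50 kb, 38.7% within 250 kb, and 20.1% for members at least 5 kb from WT. KO over WT length of H3K4me3 around members was 0.992 within 50 kb and turned above 1 within 10 kb, at 1.06. The cause was not tested. No paired analysis was possible because each antibody and genotype had 1 library. Unknown depth limits every comparison of list lengths.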
